A study of Mus musculus with 6 samples.

Results

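The receptors for serotonin, acetylcholine and the catecholamines noradrenaline and adrenaline were represented on the array by 44 genes of 34788 gene names, chosen by symbol (the Htr, Chrm, Chrn, Adra and Adrb receptor names, without the Adrbk kinases). They comprised 14 serotonin, 5 muscarinic, 16 nicotinic and 9 adrenergic receptor genes with 58 probes in all, and each gene was read from the probe with the highest mean log2 signal over the arrays. Levels came from 6 one-colour Agilent arrays of male BALB/c mice aged 8 weeks, 1 array for each of olfactory bulb, hippocampus and cerebral cortex after saline, and 1 for each after PAMAM dendrimers (branched poly(amidoamine) nanoparticles). The mice had been given a single dose through the nose, 0.15 mg/kg in the PAMAM groups, and tissue was taken after 24 h. Each array carried RNA pooled from 6 independent experiments, and the sources used here do not say whether the regions came from the same mice. With 1 array in each group, a PAMAM difference within a region is a description of a pair of arrays without a test.

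Most of these receptors couple to G proteins. Serotonin receptors of the Htr1 and Htr5 families lower cyclic AMP, Htr4, Htr6 and Htr7 raise it, and the Htr2 family activates phospholipase C. Among muscarinic receptors Chrm1, Chrm3 and Chrm5 activate phospholipase C and Chrm2 and Chrm4 lower cyclic AMP. Alpha-1 adrenergic receptors activate phospholipase C, alpha-2 receptors lower cyclic AMP and beta receptors raise it. Htr3a and Htr3b and the nicotinic genes instead encode subunits of ion channels, and Chrna1, Chrnb1, Chrnd, Chrne and Chrng are best known as subunits of the muscle receptor. The nerve cells that make serotonin and noradrenaline have their bodies in the brainstem, outside the 3 regions sampled, while their fibres reach all 3.

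Every value rests on short probes of 60 bases, so the first 30 bases of those on which the results turn are given here 5′ to 3′, with the mm9 position of the whole probe as the files give it. A further Chrna7 probe and both further Htr2c probes are shown because they read other places in the same gene.
Chrna10 (chr7:109259781-109259840, minus strand): aaacagaaggctgtgcagacatttgactcg
Chrm2 (chr6:36474550-36474609, plus strand): caaaaagacttttaagcacctccttatgtg
Htr5b (chr1:123406629-123406688, minus strand): ttttaggtattggtgagcatttgttagacc
Htr2b (chr1:87995712-87995771, minus strand): ctaaagtagatctgatggcttcaaacaaac
Chrna7, probe used (chr7:70286594-70286653, minus strand): catgtttctcctttctggatgcacctcaga
Chrna7, second probe (chr7:70244005-70244064, minus strand): cgagaattggggtcctaactctacattgtg
Htr2c, probe used (chrX:143631655-143631714, plus strand): cgtgcaacagactgccttatattatttcct
Htr2c, second probe (chrX:143604149-143604208, plus strand): tctggatttcactagatgtgctattttcaa
Htr2c, last probe (chrX:143629079-143629138, plus strand): aatttagagctgccggtcaatccctctaat
No mm9 annotation was used, so exons and untranslated regions are not named. Of the 44 probes used, 11 hold a stop codon in each of the 3 reading frames of the printed strand and 33 have at least 1 open frame. Their GC content ran from 35.0% to 55.0% with a median of 40.0%.

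Of the 44 genes, 25 were well above background by the scanner software's own call on all 6 arrays, 10 on 2 to 5 arrays, 1 on 1 array and 8 on none. The 8 were Chrm5, Chrna3, Chrnb1, Chrnb3, Chrnd, Chrne, Htr3b and Htr5a, and the gene seen on 1 array was Htr1b, on the cortex array after saline. Chrna3 and Chrnb3 encode nicotinic subunits of nerve cells, and Chrnb1, Chrnd and Chrne subunits of the muscle receptor. Chrng, a further muscle subunit gene, was well above background on both bulb arrays, and Chrna1 on both hippocampus arrays. Over all genes, 63.6% to 70.6% were well above background on an array, and between 29 and 32 of the 44 receptors were.

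The arrays matched their labelled regions by marker genes, with an exception for the cortex. All 13 measured bulb neuron markers were higher in the bulb than in either other region, and 11 of 12 hippocampal neuron markers were higher in the hippocampus than in the cortex, with Iyd, a further gene of that list, well above background on no array. Of 11 cortical neuron markers, 8 were higher in the cortex than in the bulb but 4 than in the hippocampus. All 11 measured markers of the striatum were higher in the cortex arrays than in both other regions, at a median log2 difference of -3.53 for bulb minus cortex and -3.14 for hippocampus minus cortex. Likewise 6 of 7 measured markers of basal forebrain cholinergic neurons were higher in the cortex arrays than in the hippocampus, at a median of -2.64 for hippocampus minus cortex. The part of striatal or cholinergic cells in the receptor differences that involve the cortex was not tested.

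Region differences were large for many receptors. They were tested in a limma fit of region and treatment on all 6 arrays, with Benjamini-Hochberg adjustment over 24196 genes, in which 35 of the receptor genes were well above background on at least 2 arrays. Of these 35, 23 differed between bulb and hippocampus at an adjusted p under 0.05, against 36.5% of all genes tested: 10 were higher in the bulb (16.0% of all genes) and 13 lower (20.4%). For the bulb against the cortex 18 differed (39.3% of all genes), 6 being higher in the bulb (16.5%) and 12 lower (22.8%). For the hippocampus against the cortex 5 differed (6.32% of all genes), 3 being higher in the hippocampus (3.04%) and 2 lower (3.28%). Chrna1, Chrna5, Chrna10, Chrng, Htr1d and Htr4 passed the filter only through the regions where they are high, so a call against a region where they are dim is no support for a difference, and the bounds given for them carry no p. Among the 25 receptors well above background on all 6 arrays, 17 passed for bulb against hippocampus, 14 for bulb against cortex and 3 for hippocampus against cortex. Of the 20979 genes measured that way, 37.0%, 39.9% and 5.89% passed. The median bulb minus hippocampus difference of those 25 was -0.10, against -0.06 over those 20979 genes. In pieces of tissue, fewer cells of a type and less RNA per cell cannot be told apart. Both bulb arrays lay in row 1 of the slide and both cortex arrays in row 2. Region and slide row therefore cannot be told apart for bulb against cortex.

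**Figure D1:**
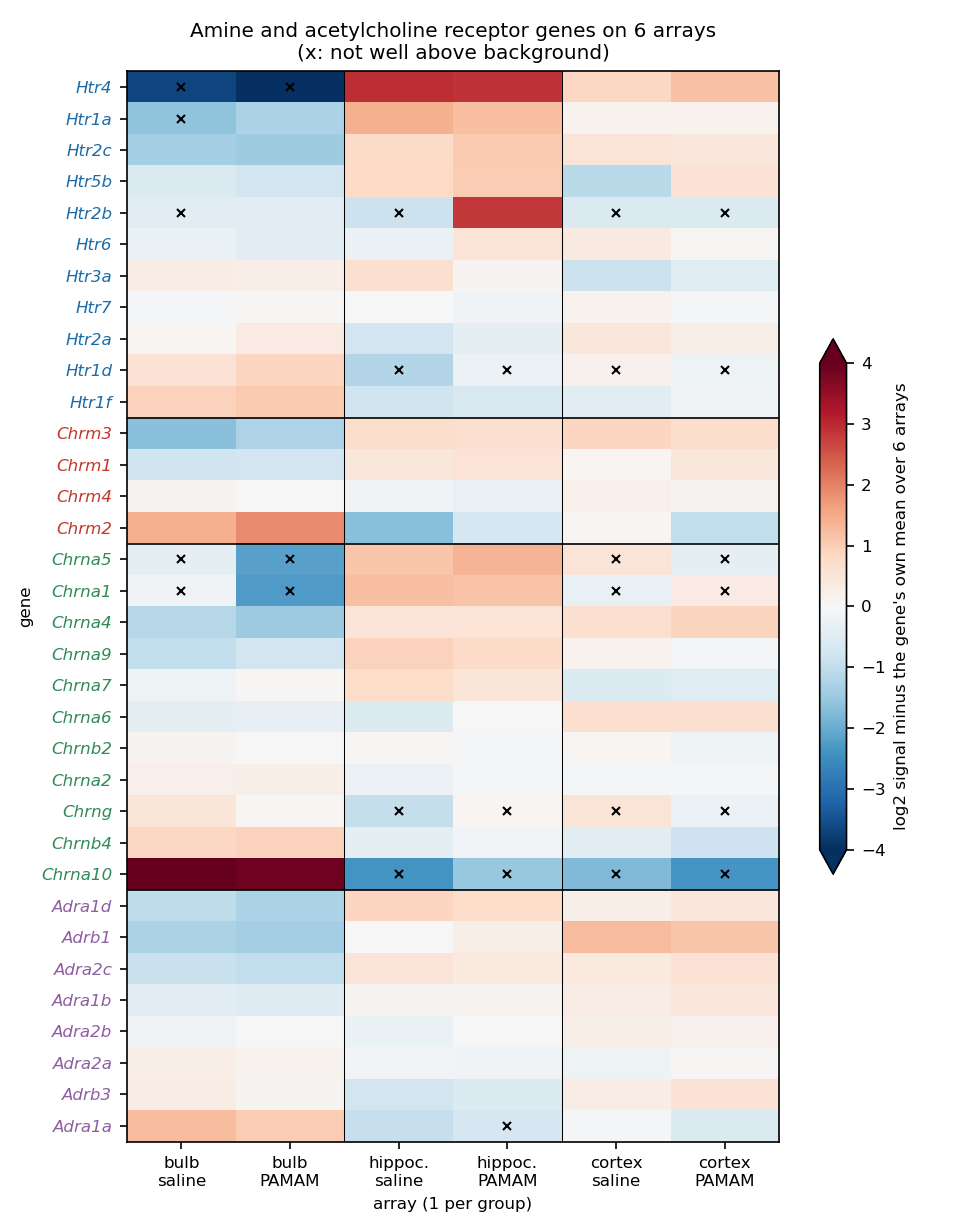
Log2 signal of 34 of the receptor genes tested, each minus its own mean over the 6 arrays, by array (1 per group), in the order serotonin, muscarinic, nicotinic and adrenergic; a cross marks an array on which the gene was not well above background. Htr4 is at its lowest on both bulb arrays and Chrna10 at its highest there, and Htr2b stands out on a single array, hippocampus after PAMAM.

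Several of these counts fell when 1 array was left out. The share of all genes called in those fits is not given here, so the falls are not read as particular to the receptors. Bulb against hippocampus gave 12 calls without the bulb saline array, 10 without the bulb PAMAM array and 14 without the hippocampus PAMAM array, and bulb against cortex gave 11 and 10 without the bulb saline and PAMAM arrays. Between bulb and hippocampus the calls of Htr1a, Htr1f, Htr2c, Chrm3, Chrna4, Chrna9 and Adra1d held with each of the 6 arrays left out in turn. Between bulb and cortex those of Htr1a, Htr1f, Htr2c, Chrm3, Chrna4, Adra2c and Adrb1 did. The calls of Htr4 and Chrna10 held in both comparisons too. Both genes passed the filter only through the regions where they are high, so this is no support for a difference. Among the other calls against the hippocampus, Adra2c was lost without the bulb PAMAM array, Chrm1 without that or the hippocampus saline array, and Adra1a and Adrb1 without either bulb array. Adra1b, Chrm2, Chrnb4, Htr1d and Htr2a were lost without any one of the bulb and hippocampus arrays, and Adrb3 without bulb saline or either hippocampus array. Chrna5 was lost without any array but hippocampus saline, and Chrna2, Chrna7 and Chrm4 without any 1 of the 6. Among the other calls against the cortex, Adra1d was lost without the bulb PAMAM array, and Adra1b, Chrm1 and Chrnb4 without either bulb array. Adra1a was lost without either bulb array or cortex PAMAM, Chrna9 without bulb saline or either cortex array, Chrna6 and Htr3a without any one of the bulb and cortex arrays, and Chrm2 without any array but cortex saline. Of the 5 hippocampus against cortex calls, 0 held with any array left out. The arrays behind the spread are pools that differ in treatment, so these p-values measure only the spread between pools.

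Among serotonin receptors, Htr4, Htr1a and Htr2c were lower in the bulb than in the other 2 regions, and Htr1f was higher. Values below are log2 signal relative to the 75th percentile of the array, with saline given before PAMAM. Htr4, which raises cyclic AMP, was at -0.09 and -0.17 in hippocampus and at -2.20 and -1.88 in cortex. In the bulb it was not well above background (-6.72 and -7.21), so the ratio has only a bound: it was at least 31.4-fold higher in the hippocampus and at least 8.34-fold higher in the cortex than in the bulb. Each such bound sets the mean of the brighter region against the dimmer region's mean of, per array, the higher of the probe's own signal and the lowest signal well above background. Htr4 was also higher in the hippocampus than in the cortex, by 1.91 ± 0.22 (SE, adjusted p = 0.0339), and those regions did not overlap. A second Htr4 probe was well above background on no array. It read -6.54 and -6.39 in hippocampus and -6.38 and -6.45 in cortex, so the Htr4 pattern belongs to the probe used.

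Htr1a, an inhibitory receptor found both on serotonin nerve cells and on their targets, was at -1.57 and -1.78 in hippocampus, -2.84 and -2.84 in cortex, and -4.60 and -4.23 in bulb. The 3 regions did not overlap, although the bulb saline value was not well above background. Bulb minus hippocampus was -2.74 ± 0.17 (SE, adjusted p = 0.00327), bulb minus cortex -1.58 ± 0.17 (adjusted p = 0.00758) and hippocampus minus cortex 1.16 ± 0.17 (adjusted p = 0.0466). Htr2c, a receptor that the choroid plexus expresses strongly besides nerve cells, was at -0.38 and -0.45 in bulb, 1.75 and 2.02 in hippocampus and 1.5 and 1.44 in cortex. The bulb lay below both other regions, at -2.30 ± 0.12 (adjusted p = 0.00255) and -1.89 ± 0.12 (adjusted p = 0.00321). Of 18 choroid plexus markers, 17 were also lower in the bulb than in the hippocampus, by a median of -3.50, and 12 were higher in the hippocampus than in the cortex. Hippocampus minus cortex for Htr2c was 0.42 ± 0.12 and did not pass the test (adjusted p = 0.143), and the part of choroid plexus in its level was not tested.

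Htr1f, a relative of Htr1a, ran the other way, at -1.72 and -1.60 in bulb, -3.43 and -3.28 in hippocampus and -3.07 and -2.80 in cortex. Both bulb arrays were above all 4 others, with bulb minus hippocampus at 1.70 ± 0.08 (adjusted p = 0.00239) and bulb minus cortex at 1.28 ± 0.08 (adjusted p = 0.00318). Htr1d was well above background on the bulb arrays alone (-4.21 and -3.90, against -5.94 and -5.03 in hippocampus), a ratio of at least 1.68-fold to the hippocampus. Htr2a was higher in the bulb than in the hippocampus by 0.77 ± 0.18 (adjusted p = 0.0432), and Htr3a, the channel subunit, was higher in the bulb than in the cortex by 0.94 ± 0.24 (adjusted p = 0.0492). Htr7 was level, between 0.41 and 0.68 on all 6 arrays, and its 3 region differences lay between -0.11 and 0.06 with adjusted p-values from 0.575 to 0.735.

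The muscarinic receptors divided between the bulb and the other regions. Chrm2, an inhibitory receptor known on the endings of cholinergic nerve cells, was at 0.02 and 0.51 in bulb, -3.08 and -2.10 in hippocampus and -1.33 and -2.38 in cortex. Both bulb arrays were above the other 4, while hippocampus and cortex overlapped. Bulb minus hippocampus was 2.85 ± 0.55 (SE, adjusted p = 0.0274) and bulb minus cortex 2.12 ± 0.55 (adjusted p = 0.0491).

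Chrm3 ran the opposite way, at -2.49 and -2.04 in bulb, -0.12 and -0.18 in hippocampus and 0.06 and -0.10 in cortex. The difference was -2.11 ± 0.18 (adjusted p = 0.00527) from the hippocampus and -2.24 ± 0.18 (adjusted p = 0.00474) from the cortex, without overlap. Chrm1, the commonest muscarinic receptor of the forebrain, was at 1.47 and 1.5 in bulb, 2.72 and 2.82 in hippocampus and 2.35 and 2.71 in cortex. It was lower in the bulb, at -1.29 ± 0.11 (adjusted p = 0.0056) and -1.05 ± 0.11 (adjusted p = 0.00806), and its other probe differed the same way. Chrm4, a receptor known from the striatum, was between -2.78 and -2.29 on every array, with bulb minus hippocampus at 0.28 ± 0.07 (adjusted p = 0.0495).

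Among nicotinic subunits Chrna10 stood apart: it was well above background in the bulb alone, at 0.83 and 0.60. It is known with Chrna9 as a subunit of the receptor on hair cells of the inner ear. Its values were -5.70 and -4.83 in hippocampus and -5.06 and -5.65 in cortex. It was at least 46.0-fold higher in the bulb than in the hippocampus and at least 37.0-fold higher than in the cortex. Chrna9, its usual partner, ran the other way with the probe used, at -2.08 and -1.87 in bulb, -0.17 and -0.34 in hippocampus and -0.96 and -1.15 in cortex. Bulb minus hippocampus was -1.72 ± 0.13 (adjusted p = 0.00464) and bulb minus cortex -0.92 ± 0.13 (adjusted p = 0.0147), with no overlap. That probe is annotated to an Ensembl transcript, and the Chrna9 probe annotated to a RefSeq transcript was well above background on no array.

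Chrna4 and Chrnb2 encode the main pair of subunits of the high-affinity nicotinic receptor of the brain. Chrna4 was at -1.64 and -1.96 in bulb, -0.01 and 0.03 in hippocampus and 0.14 and 0.37 in cortex. It was lower in the bulb, at -1.81 ± 0.16 (adjusted p = 0.00557) and -2.06 ± 0.16 (adjusted p = 0.00444), and the second probe gave -1.67 and -1.69. Chrnb2 lay between 0.17 and 0.50 on all 6 arrays and passed none of the 3 region tests (adjusted p from 0.325 to 0.713). Chrnb4, which pairs with Chrna3 in autonomic ganglia, was at -1.37 and -1.27 in bulb, -2.55 and -2.28 in hippocampus and -2.64 and -3.01 in cortex. It was higher in the bulb by 1.10 ± 0.18 (adjusted p = 0.02) and 1.51 ± 0.18 (adjusted p = 0.01). Chrna3 itself was well above background on no array.

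Chrna7, the subunit of the homomeric alpha-7 channel, was at -2.24 and -2.01 in bulb, -1.32 and -1.57 in hippocampus and -2.60 and -2.54 in cortex. Hippocampus minus cortex was 1.13 ± 0.14 (adjusted p = 0.0392), and the hippocampus arrays were above all others. The second probe, 42.6 kb away in the same gene and spotted 10 times on each array, put the bulb at -4.32 and -4.34, the hippocampus at -1.86 and -2.11 and the cortex at -2.95 and -3.05. Fitted on its own, that probe gave the same hippocampus minus cortex difference within the errors (1.01 ± 0.10, adjusted p = 0.0368 over all probes). For bulb minus cortex it gave -1.33 ± 0.10 (adjusted p = 0.00517) where the probe used gave 0.44 ± 0.15 (adjusted p = 0.0907). The probes thus place the bulb on opposite sides of the cortex, while both place the hippocampus highest.

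Chrna6, a subunit of dopamine nerve cells, was at -3.34 and -3.30 in bulb, -3.52 and -2.99 in hippocampus and -2.28 and -2.34 in cortex. It was lower in the bulb than in the cortex by -1.01 ± 0.18 (adjusted p = 0.0211). Chrna5, an accessory subunit, was well above background in the hippocampus alone (-4.09 and -3.84, against -5.60 and -7.37 in bulb and -4.67 and -5.59 in cortex). It was at least 2.20-fold higher in the hippocampus than in the bulb. Chrna2 was higher in the bulb than in the hippocampus by 0.38 ± 0.08 (adjusted p = 0.0391).

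Among adrenergic receptors, Adrb1, the main beta receptor of the forebrain, rose in the order bulb, hippocampus, cortex, at -0.61 and -0.72, then 0.65 and 0.92, then 1.91 and 1.75. The regions did not overlap, and bulb minus hippocampus was -1.45 ± 0.14 (SE, adjusted p = 0.00648), bulb minus cortex -2.50 ± 0.14 (adjusted p = 0.00271) and hippocampus minus cortex -1.05 ± 0.14 (adjusted p = 0.0414). A second Adrb1 probe kept the order with smaller differences, -0.33, -0.98 and -0.66, of which 0 passed the test when fitted on its own. Adrb3, known from fat, was at -1.91 and -2.12 in bulb, -2.95 and -2.76 in hippocampus and -1.92 and -1.65 in cortex. Hippocampus minus cortex was -1.07 ± 0.15 (adjusted p = 0.0448). A second Adrb3 probe gave 0.01 ± 0.81 for the same difference (adjusted p = 0.997), with -4.23 and -1.95 on the hippocampus arrays, so this call belongs to 1 probe. The main probe also put Adrb3 higher in the bulb than in the hippocampus (0.84 ± 0.15, adjusted p = 0.0233), and the median of both probes gave the opposite sign.

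Of the alpha-1 receptors, Adra1a was higher in the bulb and Adra1b and Adra1d were lower. Adra1a was at -2.43 and -2.65 in bulb, -4.60 and -4.37 in hippocampus and -3.78 and -4.27 in cortex, and the hippocampus PAMAM value was not well above background. Bulb minus hippocampus was 1.95 ± 0.20 (adjusted p = 0.00755) and bulb minus cortex 1.48 ± 0.20 (adjusted p = 0.0125). Adra1d was at -1.92 and -2.14 in bulb, -0.02 and -0.16 in hippocampus and -0.67 and -0.44 in cortex, with bulb minus hippocampus at -1.94 ± 0.14 (adjusted p = 0.00415) and bulb minus cortex at -1.48 ± 0.14 (adjusted p = 0.0064). Its second probe gave -1.83 and -1.44. Adra1b was lower in the bulb with the probe used, at -0.60 ± 0.09 (adjusted p = 0.0143) and -0.86 ± 0.09 (adjusted p = 0.00677). Its second probe, fitted on its own, gave -0.06 ± 0.10 from the hippocampus (adjusted p = 0.661) and -0.46 ± 0.10 from the cortex (adjusted p = 0.0357), so the difference from the hippocampus belongs to 1 probe.

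Of the alpha-2 receptors, Adra2c was lower in the bulb (0.59 and 0.51) than in the hippocampus (2.0 and 1.88) and the cortex (1.88 and 2.07). Those differences were -1.39 ± 0.11 (adjusted p = 0.00461) and -1.43 ± 0.11 (adjusted p = 0.0043), and hippocampus and cortex overlapped. Adra2a lay between 1.27 and 1.75 and Adra2b between -1.07 and -0.58 on all arrays, and neither passed a region test (adjusted p from 0.111 to 0.872).

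**Figure D2:**
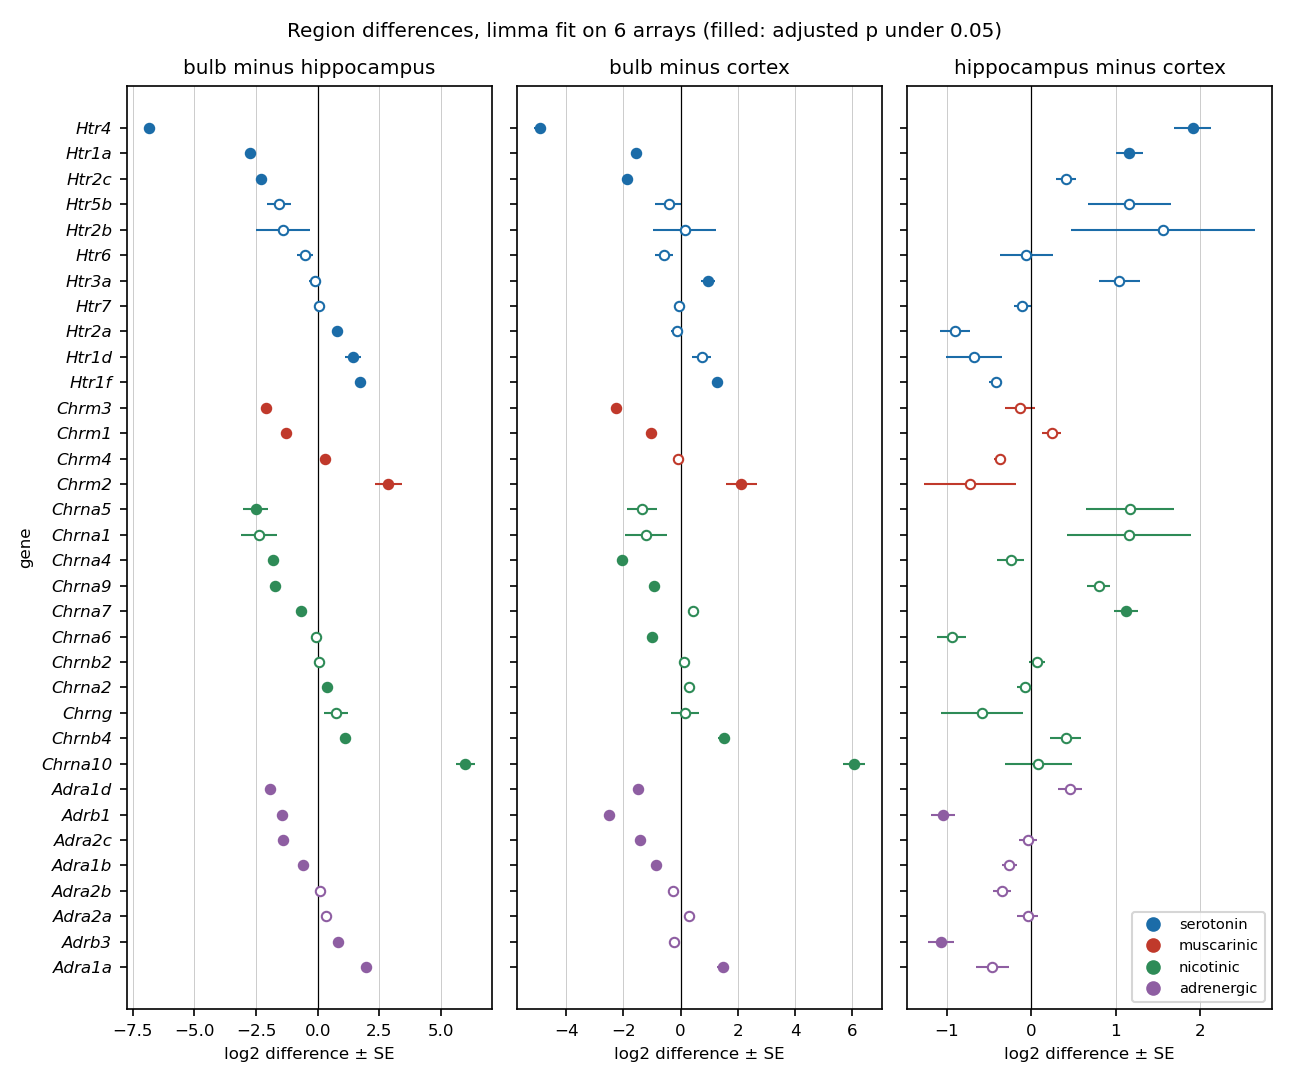
Differences between regions (log2, with the SE of the limma fit on 6 arrays) for 34 of the receptor genes tested, with filled points where the adjusted p was under 0.05 and a separate scale in each panel. The extremes of the first 2 panels, Htr4 and Chrna10, are fitted values of genes not well above background in the dimmer region, for which the text gives bounds, and 5 points are filled in the hippocampus minus cortex panel.

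**Figure D3:**
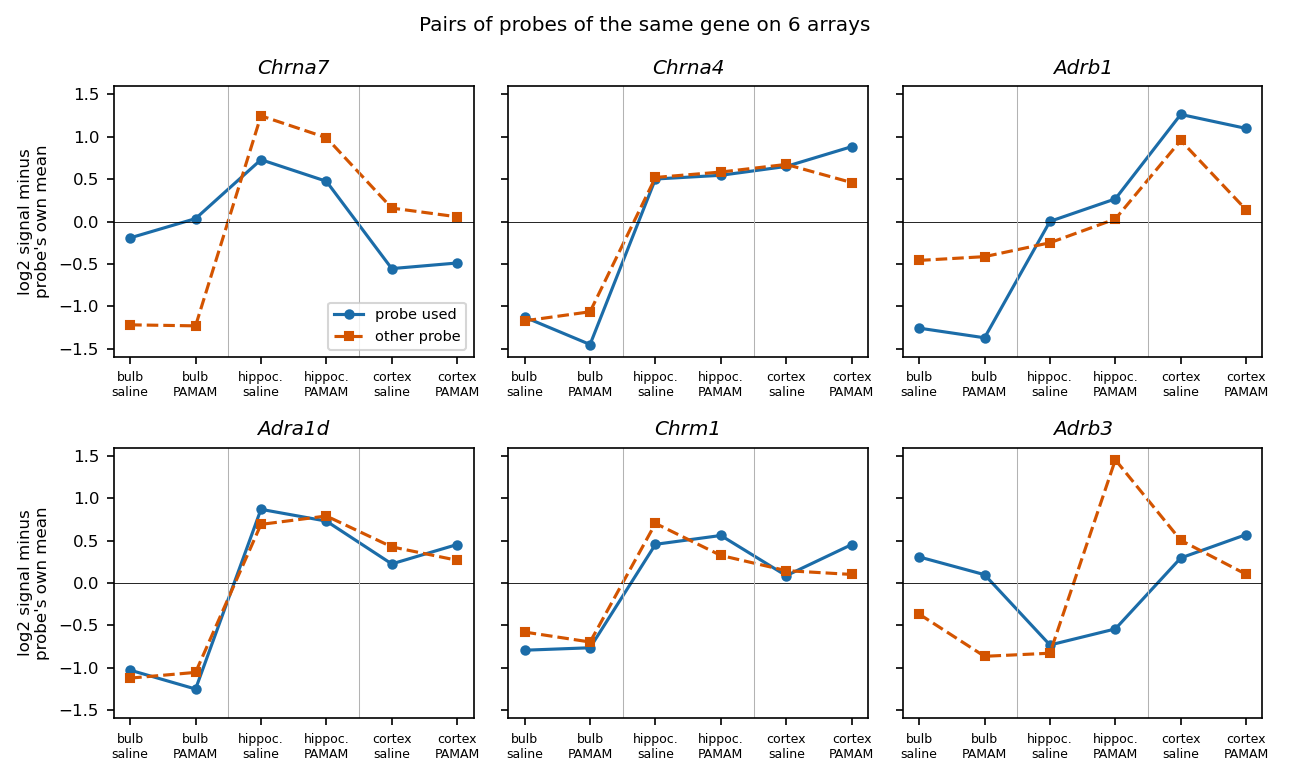
Log2 signal of both probes of 6 genes on the 6 arrays, each probe minus its own mean (solid line and circles: the probe used; dashed line and squares: the other). The pairs for Chrna4, Adra1d and Chrm1 follow each other from region to region, the Chrna7 pair separates on the bulb arrays, and the Adrb3 pair separates on the hippocampus PAMAM array.

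For 9 genes at least 2 probes were well above background on 2 or more arrays. In each region comparison 8 of the 9 differed in the same direction with both probes. Chrna7 was the exception for bulb against cortex, and Adrb3 was for both other comparisons. The 9 include Chrna1, of which both probes were well above background on the hippocampus arrays alone, so its agreement is no support. The share of agreeing probe pairs over all genes is not given here. For Htr2c the second probe gave -2.25 and -1.97 from hippocampus and cortex, close to the -2.30 and -1.89 of the probe used. However, it was well above background on only 1 of the bulb arrays, at -5.65 after saline and -4.16 after PAMAM. The closeness thus rests partly on a bulb value that is not well above background. The last Htr2c probe was well above background on no array.

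RefSeq promoters (GRCm38.p6, 250 bases before to 50 after the start) were found for 32 of the 44 genes. A GC box (GGGCGG or CCGCCC), the short element to which factors such as Sp1 bind, lay in 17 of the 32 (53.1%), against 38.2% of the 27025 genes in the table. A CCAAT box (CCAAT or ATTGG) lay in 9 (28.1%, against 41.1%), an E-box (CAGCTG, the same on both strands) in 8 (25%, against 18.3%) and a cyclic AMP response element (TGACGTCA) in 0 (against 2.03%). The GC box was present in 3 of the 4 promoters of genes highest in the bulb on both arrays and in 4 of the 8 of genes lowest there. For genes between the other regions or overlapping them it was present in 5 of 6. Stretches of 30 bases around the box, in capitals, are shown for a pair of genes from each side. The first pair was lowest and the second pair highest in the bulb, though Adra2a passed no region test. These matches are descriptions of letters, not of bound sites.
Adrb1 (GRCm38.p6 chr19:56721903-56721932, plus strand): tggctgcgtagtCCGCCCgcaatctttgga
Chrna4 (GRCm38.p6 chr2:181039211-181039240, minus strand): aacctcgagctcCCGCCCcgccgccgcacc
Chrm2 (GRCm38.p6 chr6:36387990-36388019, plus strand): tccagaaactgtCCGCCCattgcagctaat
Adra2a (GRCm38.p6 chr19:54045145-54045174, plus strand): gggaggcgcgagGGGCGGaggagggtcgac

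Genes around the receptors were counted in lists chosen for their function, which were not tested as lists. Of all genes tested, 16.0% were higher and 20.4% lower in the bulb than in the hippocampus, and 16.5% and 22.8% against the cortex. Of 10 measured genes of nicotinic receptor assembly and modulation, 3 were higher and 6 lower in the bulb than in the hippocampus (median -1.53), and the same numbers held against the cortex (median -1.44). Lypd1 was lower in the bulb, at -4.38 ± 0.16 (adjusted p = 0.00195) and Lypd6b at -2.89 ± 0.12 (adjusted p = 0.00217), while Ly6g6e, of the same Ly6 family of small proteins, was higher by 4.02 ± 0.31 (adjusted p = 0.00458). Of 20 G protein subunit genes, 3 were higher and 9 lower in the bulb than in the hippocampus (median -0.26). Gng4, a gamma subunit, was higher in the bulb by 4.05 ± 0.09 (adjusted p = 0.00157), and Gng7, a gamma subunit of the striatum, was lower, at -2.41 ± 0.10 (adjusted p = 0.00209). The median over all genes tested was -0.04 for this comparison and -0.05 for bulb minus cortex.

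Of 21 measured cyclases, phospholipases, kinases and channels downstream, 2 were higher and 10 lower in the bulb than in the hippocampus (median -0.31), and 1 and 12 against the cortex (median -0.49). Adcy1, a cyclase stimulated by calcium, was lower in the bulb, at -2.94 ± 0.07 (adjusted p = 0.00157) and -2.91 ± 0.07 (adjusted p = 0.00156). Of 15 receptor kinases, arrestins and RGS proteins, which end G protein signals, 1 was higher and 7 lower than in the hippocampus (median -0.36). Rgs14, known from field CA2 of the hippocampus, was lower in the bulb, at -3.65 ± 0.17 (adjusted p = 0.00242). In the cortex arrays Rgs9, a gene of the striatum, was higher than in the hippocampus (-3.21 ± 0.08 for hippocampus minus cortex, adjusted p = 0.0157). Rgs9 is itself among the striatal markers counted above.

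Genes that make and remove the transmitters were measured too. Of 8 acetylcholine genes, 5 were lower in the hippocampus than in the cortex (median -1.23) and 0 higher, against 3.28% and 3.04% of all genes. Chat, which makes acetylcholine, differed by -1.87 ± 0.23 (adjusted p = 0.0365) and Slc18a3, which loads it into vesicles, by -2.64 ± 0.12 (adjusted p = 0.0183). Both belong to the cholinergic neuron markers too. Of 5 measured noradrenaline genes, 2 were higher in the bulb than in the hippocampus. Th, which bulb dopamine cells use as well, led by 5.09 ± 0.10 (adjusted p = 0.00157), and the transporter gene Slc6a2 was well above background on no array. Of 7 measured serotonin genes, 2 were higher and 2 lower in the bulb than in the hippocampus, and Tph2 and Slc6a4, which mark serotonin nerve cells, were well above background on no array. Slc29a4, a transporter of monoamines, was higher in the hippocampus than in the cortex by 2.08 ± 0.18 (adjusted p = 0.027).

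No receptor gene passed the test for a PAMAM difference common to the 3 regions. In the limma fit 0 of 35 were called, as were 0.0% of all genes; at an unadjusted p under 0.05 the counts were 0 receptors and 1496 genes of 24196. The lowest adjusted p among receptors was that of Htr1f (0.18 ± 0.06, adjusted p = 0.796), which was higher with PAMAM in 3 of 3 regions. Among the 25 receptors measured on all arrays, 5 moved one way in all 3 regions (20.0%), against 29.5% of 20979 genes. Chrm1, Chrna2 and Htr1f were higher and Chrm4 and Chrnb2 lower, none of them by more than 0.37 in any region.

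In the bulb, the region nearest the nose, 0 receptor differences reached 0.5 (log2), against 3.17% of all genes. Of 30 receptors measured on both bulb arrays, 14 were higher and 16 lower with PAMAM, between -0.40 and 0.49, and 0 reached 2-fold (0.259% of all genes did). The top of that range was held by Chrm2 (0.49) and Chrm3 (0.45), both above the central 95% of all genes (-0.47 to 0.38). The median size of the difference was 0.15 for the receptors and 0.09 over all genes.

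In the hippocampus, 15 of 29 receptors were higher and 14 lower with PAMAM, and again 0 reached 2-fold (0.653% of all genes). The median size of the difference was 0.19, against 0.10 over all genes, and 4 receptors reached 0.5 (13.8%, against 4.60%). These sizes were not tested. Chrm2 went from -3.08 to -2.10, a difference of 0.98. Htr6, which raises cyclic AMP, went from -4.13 to -3.33 (0.80) and Chrna6 from -3.52 to -2.99 (0.54), while Htr3a went from -1.75 to -2.29 (-0.54). The central 95% of all genes ran from -0.40 to 0.57, with Chrm2 and Htr6 above it, Htr3a below it and Chrna6 inside. Htr6 and Chrna6 are dim: the lowest signals well above background were -5.05 (saline) and -4.56 (PAMAM). Genes well above background on no array shifted by a median of 0.49 between these arrays. The part of such a shift in the rises of Htr6 and Chrna6 was not tested. Htr2b, a receptor of blood vessels and meninges, was well above background on the PAMAM array alone (-1.80, against -5.49 after saline), where it was at least 9.56-fold higher, read from 1 spot on each array. On the same pair of arrays 17 of 18 choroid plexus markers were higher with PAMAM (median 0.72, summed signal 235 to 377 in units of the array's 75th percentile). Of 10 measured thalamus markers 8 were higher (median 0.16, summed signal 34.7 to 38.7), 6 of 12 meningeal markers were (median 0.05, summed signal 24.9 to 25.8) and all 5 measured red blood cell markers (median 0.55, summed signal 45.6 to 65.9). The 2 arrays of the hippocampus lay in different rows of the slide, unlike those of the other regions. The part of those cells and of the slide row in the receptor differences was not tested.

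In the cortex, 13 of 28 receptors were higher and 15 lower with PAMAM, and 2 reached 2-fold (0.768% of all genes). The median size of the difference was 0.22, against 0.14 over all genes, and 2 receptors reached 0.5 (7.14%, against 6.89%). Htr5b, a receptor gene that people carry without a working protein, went from -3.05 to -1.41, a difference of 1.64. The PAMAM value lay near those of the hippocampus (-1.17 and -0.96) and the saline value near those of the bulb (-2.58 and -2.73). On the same arrays 7 of 9 measured hippocampal neuron markers were higher with PAMAM, by a median of 0.52 (summed signal 39.1 to 52.5), and whether they move with Htr5b through the same cells was not tested. Chrm2 went from -1.33 to -2.38, a difference of -1.05, and the central 95% of all genes ran from -0.61 to 0.52. All 7 measured cholinergic neuron markers were lower there as well, by a median of -0.38 (summed signal 3.35 to 2.54). Of 8 acetylcholine genes 7 were lower (median -0.31), and Chat, Slc18a3 and Slc5a7 are in both of these lists. By contrast 11 of 12 meningeal markers were higher (median 0.77, summed signal 10.3 to 19.0) and 12 of 13 choroid plexus markers (median 0.46, summed signal 32.8 to 56.4). All 4 measured red blood cell markers were higher too (median 0.59, summed signal 46.3 to 71.8). The part of these cells in the receptor differences was not tested. With normexp background correction the differences of Htr5b and Chrm2 were 1.10 and -0.69.

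**Figure D4:**
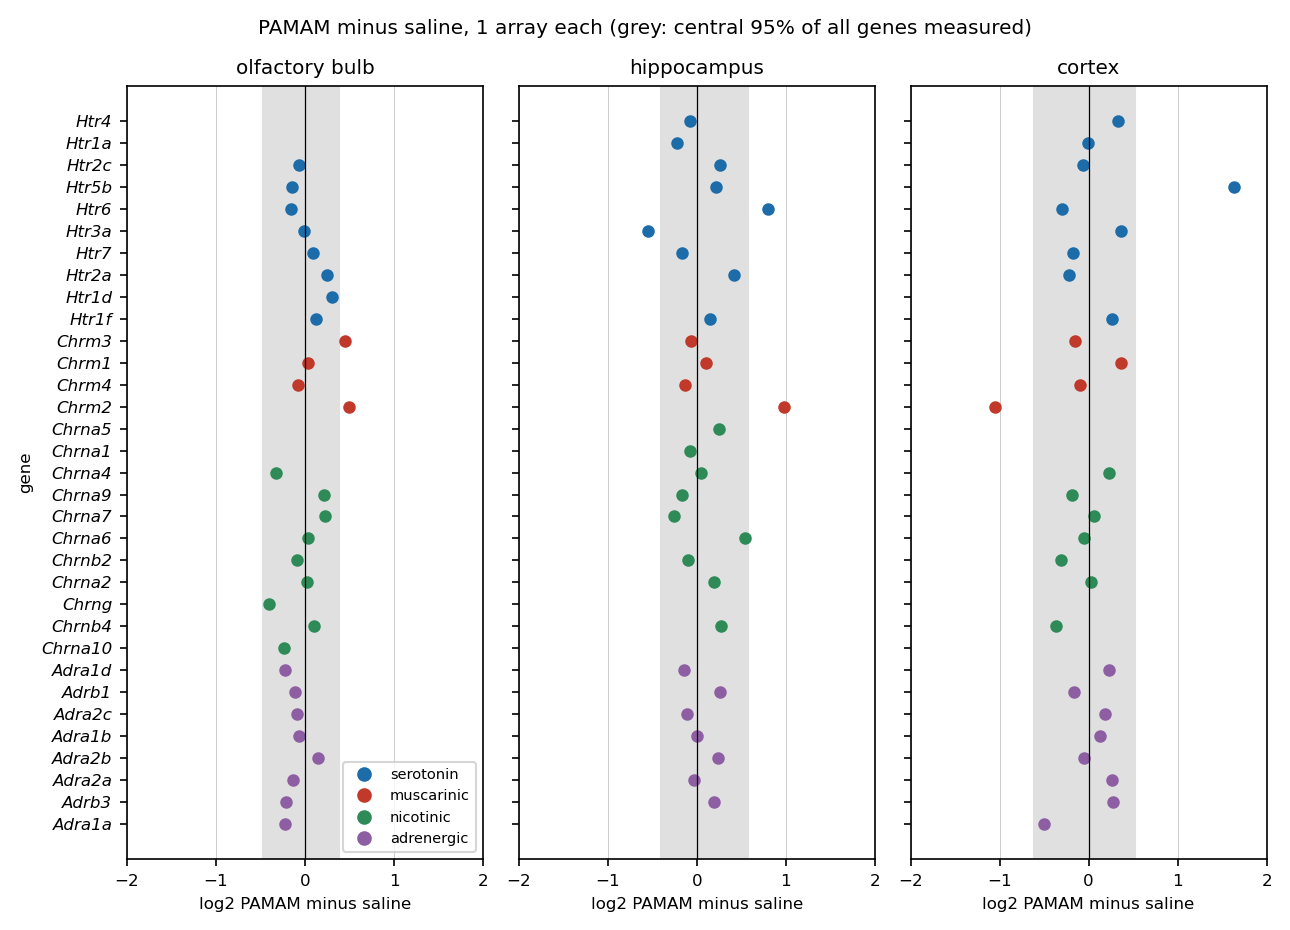
PAMAM minus saline (log2, 1 array each) for receptors well above background on both arrays of a region, with the central 95% of all genes in grey. Htr5b in the cortex (1.64) and Chrm2 in the hippocampus (0.98) and cortex (-1.05) lie outside the grey band, as do Htr6 and Htr3a in the hippocampus and Chrm2 and Chrm3 in the bulb, and all 29 points drawn for the bulb lie within 0.49 of 0.

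The dim receptors gave no usable PAMAM difference. The 9113 genes that were well above background on no array shifted with PAMAM by a median of -0.47 (bulb), 0.49 (hippocampus) and -0.08 (cortex), and the 8 receptors of that kind are given without a difference.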

How the data were processed

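Spot intensity was deposited by the authors as scanner files made with Agilent Feature Extraction 10.7.3.1, per the file headers. A second file from the authors holds log2 values, with scale and centring unstated. Set against the scanner values, it equals the log2 values used here minus each probe's median over the 6 arrays, to within 0.0233 for probes with 1 spot. Here log2 of the background-corrected, processed intensity was set relative to the 75th percentile of each array, spots of a probe were averaged, and the probe with the highest mean stood for a gene. The 75th percentile lay between 452.0 and 709.6 intensity units. Spots of 399 probes printed 10 times had a median SD of 0.09 (log2). Genes well above background on at least 2 of 6 arrays were fitted with limma 3.58.1 (R 4.3.3) on region and treatment, leaving 2 residual degrees of freedom, with 1.83 more from the prior, and adjusted by Benjamini-Hochberg. PAMAM differences that vary between regions count as error in that fit. The fit was tested on simulated data. All arrays lay on 1 slide. Probe positions are mm9, per the file headers' own columns, promoters are RefSeq's on GRCm38.p6, and the builds were not mixed. Of the 44 probes, 41 carry an accession that RefSeq gives the same symbol; Chrna4, Chrna7 and Chrna9 were named from the files.

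Receptors named in full are those called between regions at 2-fold or more and those with a PAMAM difference of at least 0.5. The members and lists were chosen with earlier results of these data known. Arrays limit the precision by their number. Alternatives were quantile scaling, normexp background, the authors' table, the median of a gene's probes, other filters and leaving out each array; the fit of every probe on its own was chosen after seeing the data. The values of 1 receptor gene are counted but not reported here.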

Additional observations from a re-analysis of the deposited data

Results flagged for a closer look

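Chrm2 moved in opposite directions with PAMAM in a pair of regions: by 0.98 (log2) in the hippocampus and by -1.05 in the cortex. It was marked because the arrays of one region moved one way and those of the other the opposite way. With 1 array in each group the difference between regions was not tested.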

How the results depend on the processing

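The count of receptors called between bulb and hippocampus (23) was 14 with no filter on dim genes and 10 to 20 with 1 array left out. Between bulb and cortex (18) it was 10 to 18 with 1 array left out. Between hippocampus and cortex (5) it was 1 with quantile scaling, 1 with the median of a gene's probes, 8 with normexp background, 8 of 25 with the filter on all 6 arrays, 0 with no filter, 2 with every probe fitted on its own, and 0 to 0 with 1 array left out. At 2-fold with PAMAM, the median of probes gave 2 receptors in the bulb and 2 in the hippocampus, where the single probe gave 0; a background call on either array gave 1 in the hippocampus, and a threshold of 1.5-fold gave 2 there. In the cortex (2) quantile scaling gave 1 and normexp 1. Of the region differences of 2-fold or more, 71 of the values with an array left out and 23 of those under other alternatives fell short of the threshold, and 0 changed sign; among smaller called differences, that of Adrb3 between bulb and hippocampus did with the median of probes. The hippocampal differences with normexp were 0.68 (Chrm2), 0.52 (Htr6), 0.29 (Chrna6) and -0.26 (Htr3a). The fit compares PAMAM with saline within region. With slide row as a further block 0 of 35 receptors were called. Row differs within the hippocampus alone, so that fit reads PAMAM from the bulb and cortex pairs only. It has fewer residual degrees of freedom than the main fit, which called 0 already, so its 0 is no support. No pairing by replicate number was possible because each group has 1 array. As above, the share of all genes called with an array left out is not given. Nor is it given for the other alternatives. The changes in these counts are therefore not read as particular to the receptors.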
